A study of Mus musculus with 39 samples.

Results

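The brains of mice given soman under the skin at 1/2 of the LD50 (the median lethal dose) and sampled at day 1 were compared with the brains of mice given saline. The comparison takes 6 of the 39 libraries of the series, the 3 labelled 1/2 LD50 at day 1 and the 3 labelled saline, and its members were set by these labels. The other 33 libraries come from mice given soman at 1/2, 1/5 or 1/10 of the LD50 and sampled at day 1, 3, 7 or 14. Here the 1/10 and 1/5 LD50 groups at day 1 and the 1/2 LD50 groups at later days serve to show where the 1/2 LD50 group at day 1 differs. Each group has 3 biological replicates according to the labels, which do not say how many animals a library was made from. The mice were kept in 12 h light and dark cycles. Strain, sex, age and the hour of sampling are not given in the sources used here, nor are the day on which the saline brains were taken and whether soman was given once. A difference from saline can therefore hold a difference between collection days, and the design does not tell the 2 apart. RNA was selected with poly(dT) beads, and the deposited values are FPKM, a level per length of transcript and per fragment mapped.

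Soman is an organophosphate nerve agent. It binds acetylcholinesterase, the enzyme that splits acetylcholine at synapses, so that acetylcholine builds up and cholinergic neurons overdrive their targets. At high doses this leads to seizures, and strongly firing neurons switch on immediate early genes such as Fos, Arc and Egr1 within minutes to hours. Cells under protein-folding stress switch on chaperones: in the endoplasmic reticulum (ER) through the unfolded protein response, with its transcription factors Xbp1, Atf6 and Atf4, and in the cytosol through heat shock factor. Both programmes run at a basal level in unstressed brain, so that their messengers can fall as well as rise.

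The 6 libraries were alike in the summary measures. The FPKM of a library summed to 296322 to 316802, and 25731 to 26499 genes were above 0. Genes of the mitochondrial genome took 9.24% ± 2.39 of the FPKM in saline and 10.2% ± 1.65 at 1/2 LD50 (SD, n = 3 each, two-sided exact permutation p = 0.5, where 0.1 is the smallest that 3 against 3 allows). The tissue label was met by the defining genes of brain cells. In saline Snap25, a synaptic vesicle fusion protein of neurons, stood at 674.3 FPKM, Mbp, a myelin protein, at 1413 FPKM, Slc1a2, the glutamate transporter of astrocytes, at 155.9 FPKM and Cx3cr1, a receptor of microglia, at 6.98 FPKM. In both groups replicate 3 lay between the other replicates. Among genes of mean FPKM 5 or more that were over 2-fold apart in replicates 1 and 2, replicate 3 of saline took a position from 0.3 to 0.7 of the way between them for 52.7% of 55 genes, and no library of another group set in its place exceeded 33.9%. For replicate 3 of 1/2 LD50 the share was 62.7% of 59 genes, and the highest of other libraries was 36.2%. By the same measure, replicate 3 of the other day 1 groups had shares of 58.5% of 41 genes at 1/10 LD50 and 60.6% of 66 at 1/5 LD50. The highest share of the 39 libraries was 69.6% of 467 genes, in replicate 2 of 1/10 LD50 at day 7. That library stayed in the model when replicates 3 were left out. A library of this kind narrows the spread of its group. Counts of calls are given with and without replicate 3 of saline and of each day 1 group, as are some gene and list values. Other values are those with all libraries unless said otherwise.

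Of 14701 genes tested, 4 rose and 13 fell, which is 0.116% of the genes (0.0272% higher and 0.0884% lower, limma on log2(FPKM + 1), Benjamini-Hochberg adjusted p under 0.05). The median log2 change over all tested genes was -0.01. The genes that fell were led by Rpl30, a protein of the large ribosomal subunit, and otherwise held folding genes of the ER (Hspa5, Pdia4, Manf, Xbp1, Herpud1), heat shock genes (Hsph1, Dnajb1), activity-induced genes (Arc, Nr4a3), P4ha1, Eomes and Nuak1. Those that rose were Rbm3, Opalin and the predicted loci Gm51716 and Gm33272. Before adjustment 1075 genes were at p under 0.05, of which 478 were higher (3.25%) and 597 lower (4.06%). In bulk tissue, fewer cells of a type and less RNA per cell cannot be told apart. The p-values measure the spread between the libraries as labelled. When replicate 3 of saline and of each day 1 group were left out together, 1 gene passed, Rpl30 (limma adjusted p = 0.00187), and 525 were at p under 0.05 before adjustment.

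**Figure D1:**
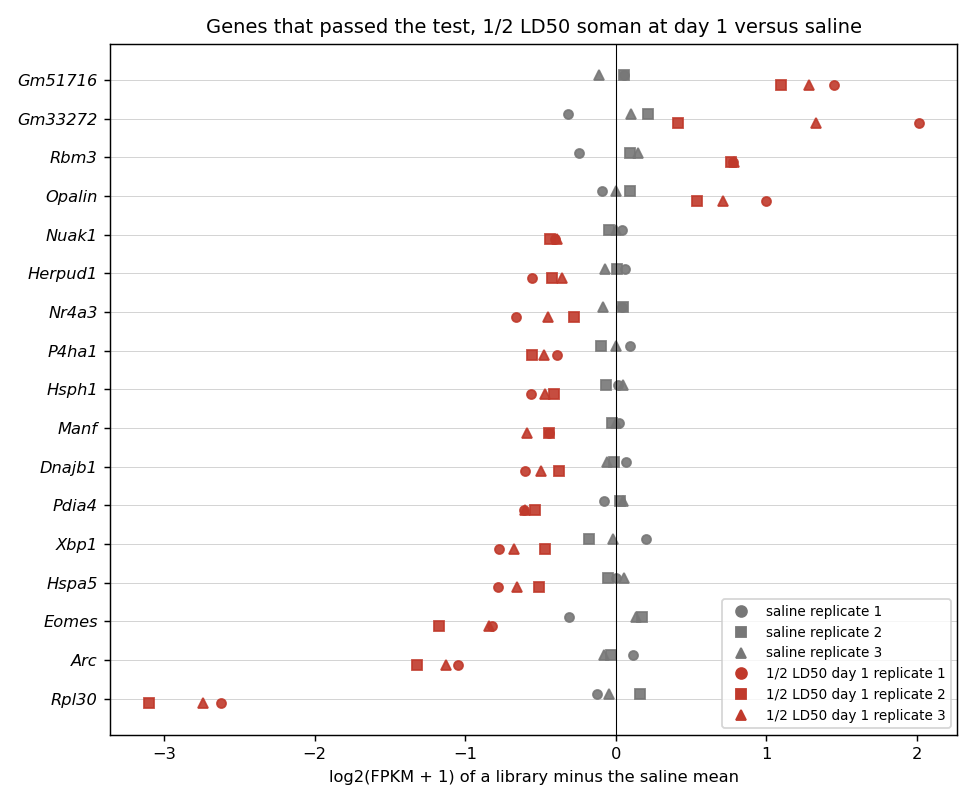
Each row is 1 of the 17 genes that passed, and each point a library, as log2(FPKM + 1) minus the mean of the 3 saline libraries. For every gene shown the 3 libraries of 1/2 LD50 at day 1 (red) lie to 1 side of the 3 saline libraries (grey), a separation that passing the test makes likely, and Rpl30 lies farthest out at a log2 change of -2.82.

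The calls rested on few libraries. Leaving out 1 of the 6 libraries at a time left 3 to 13 calls. There were 5, 8 and 6 calls without saline replicates 1, 2 and 3, and 3, 13 and 3 without replicates 1, 2 and 3 of 1/2 LD50. Rpl30 and P4ha1 passed in 6 of 6 of these fits and Hsph1 in 5 of 6. Xbp1, Rbm3 and Gm33272 passed in 3 of 6, Pdia4 and Opalin in 2 of 6, and Hspa5, Dnajb1, Nr4a3 and Eomes in 1 of 6, while Arc, Manf, Herpud1, Nuak1 and Gm51716 passed in 0 of 6. The log2 change of each of the 17 genes kept its sign in all of them. Without replicate 3 of saline and of each day 1 group these changes also kept their signs, from -2.88 for Rpl30 to 1.26 for Gm33272. The medians of the lists described next were then -0.15 for ER chaperones, -0.23 for heat shock proteins, -0.22 for Egr and Nr4a genes, -0.14 for activity-induced synaptic genes and -0.30 for MAP kinase phosphatases.

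Hspa5, Pdia4 and Manf fell among the genes of ER folding. Of 24 tested ER chaperones and folding enzymes, 3 fell and none rose (0.116% of all genes passed). The 3 soman libraries were below all 3 saline libraries for 13 of the 24 (9.6% of all tested genes) and above them for 1 (7.93% of all). The median log2 change of the list was -0.16.

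Hspa5, or BiP, is the main ER chaperone and holds the stress sensors of the ER inactive. Its level was 174.5, 168.1 and 181.5 FPKM in the 3 saline libraries and 101.2, 122.4 and 110.4 FPKM in the 3 libraries of 1/2 LD50. The groups did not overlap, and Hspa5 fell to 63.7% of saline, a log2 change of -0.65 ± 0.13 (SE, limma adjusted p = 0.0212). Pdia4, a protein disulfide isomerase, which joins and reshuffles disulfide bonds, stood at 24.2, 26.2 and 26.6 FPKM in saline and at 16.5, 17.4 and 16.6 FPKM at 1/2 LD50. The soman libraries were close together and all below saline, with a log2 change of -0.58 ± 0.10 (SE, limma adjusted p = 0.0102). Manf, a small ER protein that is also secreted and protects neurons, went from 68.2, 66.0 and 67.0 to 48.9, 49.0 and 44.3 FPKM. It fell by 0.49 ± 0.10 on the log2 scale (SE, limma adjusted p = 0.0404).

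Among the members that did not pass, Sdf2l1, an ER cochaperone of Hspa5, had the lowest log2 change of the list, -0.84 ± 0.21 (SE, limma adjusted p = 0.109), with 11.005, 12.0 and 11.02 FPKM in saline and 5.04, 6.62 and 6.10 at 1/2 LD50. Hsp90b1, the ER form of HSP90, had a log2 change of -0.29 ± 0.07 (SE, limma adjusted p = 0.0892) and Pdia3, a disulfide isomerase of glycoproteins, -0.27 ± 0.07 (0.114). All 3 soman libraries were below all saline libraries for these genes as well as for Creld2, Calr, Hyou1, Pdia6, Dnajc3, Dnajb11 and Canx. Other members stayed near saline or above it. Ppib, an ER prolyl isomerase, was above all saline libraries, and P4hb, Ero1a, Erp29, Erp44 and Fkbp2 had log2 changes between -0.03 and 0.03.

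Some of the promoters of these genes hold a known control element. The ER stress response element (ERSE) is CCAAT, then 9 bases, then CCACG, and in the unfolded protein response it is bound by NF-Y with ATF6 or XBP1. It was sought on both strands of RefSeq promoter windows of GRCm38.p6, each 250 bases before to 50 after a gene's start. Of the 24 tested chaperones 19 had a window and 7 of these held the element (36.8%), against 0.137% of 27025 gene symbols. Both the list and the element were chosen as known parts of the unfolded protein response, so this share describes the list and tests nothing. The sequences shown are those of the 7 genes that held it. All 7 lay below saline in every soman library, as did 13 of the 24 tested members in all. Pdia4, Sdf2l1, Pdia3 and Dnajb11 were below as well, with no match found. A link between the element and the lower values was not tested. The conserved ends of the element are in capitals, 5′ to 3′ on the strand that reads CCAAT first.
Hspa5: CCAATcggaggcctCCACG
Hsp90b1: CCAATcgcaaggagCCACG
Hsp90b1: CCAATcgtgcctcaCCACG
Calr: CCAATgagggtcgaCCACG
Canx: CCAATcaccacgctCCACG
Pdia6: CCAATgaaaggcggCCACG
Dnajc3: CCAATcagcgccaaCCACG
Creld2: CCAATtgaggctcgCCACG
The log2 changes of the 7 genes ran from -0.12 for Canx to -0.65 for Hspa5, and of the 7 Hspa5 passed the test. The other 12 chaperones with a window did not hold the element. The middle bases differ from gene to gene, and Hsp90b1 holds the element at 2 places. Of the other chaperones that fell, Pdia4 had a window without this spelling, and Manf is not in the table of windows. A match is a description of the sequence and no match says only that these letters are not in the window.

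The 250 bases before the start of Hspa5 lie at chr2:34771840-34772089 on the plus strand (GRCm38.p6). The ends of its ERSE are in capitals, 46 bases before the start.
Hspa5: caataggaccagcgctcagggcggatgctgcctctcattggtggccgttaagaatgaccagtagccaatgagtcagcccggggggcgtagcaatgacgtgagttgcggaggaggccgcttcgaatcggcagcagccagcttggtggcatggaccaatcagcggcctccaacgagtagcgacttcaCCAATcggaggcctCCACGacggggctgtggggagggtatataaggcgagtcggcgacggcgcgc

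Of 12 tested transcription factors and sensors of the unfolded protein response, 1 fell and none rose (0.0884% of all tested genes fell). The median log2 change was -0.09. Xbp1, a factor whose messenger is spliced by the sensor IRE1 under ER stress, stood at 37.7, 28.9 and 32.3 FPKM in saline and 18.7, 23.3 and 20.2 FPKM at 1/2 LD50. It fell by 0.64 ± 0.11 on the log2 scale (SE, limma adjusted p = 0.0102), and the groups did not overlap. FPKM of a gene do not tell the spliced from the unspliced form. Ddit3, or CHOP, a factor of the later death phase of the response, had a log2 change of -0.43 ± 0.14 (SE, limma adjusted p = 0.312), also with no overlap. Atf4, Eif2ak3 (the sensor PERK) and Ern1 (the sensor IRE1) had log2 changes between -0.01 and 0.03.

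The list of ER-associated degradation and translocation covers genes that take misfolded proteins out of the ER and new ones in. Of its 22 tested genes 1 fell (0.0884% of all tested genes did), none rose, and the median log2 change was -0.02. The gene that fell was Herpud1, a membrane protein of the degradation complex, with 28.6, 27.4 and 26.0 FPKM in saline and 18.2, 20.05 and 21.0 at 1/2 LD50 (log2 change -0.45 ± 0.09, SE, limma adjusted p = 0.0212). Syvn1, the ubiquitin ligase of that complex, had a log2 change of -0.21 ± 0.06 (SE, limma adjusted p = 0.215) with no overlap. Sec61g, a subunit of the translocation channel, had a log2 change of 0.68 ± 0.36 (0.717), and its saline libraries ranged from 4.32 to 11.3 FPKM. ERSE was found in 2 of the 17 members with a window, Syvn1 and Derl3. P4ha1, a prolyl hydroxylase that works on collagen in the ER and was in none of the folding lists, fell from 17.3, 15.1 and 16.2 to 12.1, 10.7 and 11.4 FPKM. Its log2 change was -0.47 ± 0.07 (SE, limma adjusted p = 0.000385), and without replicates 3 of the saline and day 1 groups it was -0.47 (0.0781).

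Hsph1 and Dnajb1 fell among the cytosolic chaperones. Of 29 tested heat shock proteins, 2 fell and none rose (0.0884% of all tested genes fell). The 3 soman libraries were below all saline libraries for 20 (9.6% of all tested genes) and above them for none. The median log2 change was -0.23. Hsph1, or HSP110, which recharges HSP70 with nucleotide, stood at 104.2, 98.7 and 106.9 FPKM in saline and 69.4, 77.4 and 74.2 FPKM at 1/2 LD50. It fell by 0.48 ± 0.08 on the log2 scale (SE, limma adjusted p = 0.00494). Dnajb1, an HSP40 cochaperone, went from 14.6, 13.8 and 13.3 to 8.79, 10.5 and 9.56 FPKM, a log2 change of -0.49 ± 0.10 (SE, limma adjusted p = 0.0358). In both genes the groups were well apart.

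The other members gave smaller or less certain values. Hsp90aa1, the inducible cytosolic HSP90, had a log2 change of -0.29 ± 0.07 (SE, limma adjusted p = 0.107), and Stip1, which links HSP70 to HSP90, -0.29 ± 0.08 (0.137). Dnajb5, an HSP40 protein, had -0.35 ± 0.10 (0.189). The classic stress-induced Hspa1a was low in both groups, at 3.50, 3.76 and 3.80 FPKM in saline and 1.61, 2.58 and 2.02 FPKM at 1/2 LD50 (log2 change -0.62, limma adjusted p = 0.568). Hspa1a and Hspa1b are near-identical copies, and reads may be split between them. The heat shock element is GAA, TTC and GAA with 2 bases between each. It was in the windows of 4 of 22 members (18.2%), Hsph1, Hspd1, Hspe1 and Chordc1, against 0.662% of all gene symbols. The list and the element were both chosen as known parts of the heat shock response, so this share tests nothing. In Hspd1 and Hspe1, the mitochondrial chaperonin and its partner, which start in opposite directions from 1 promoter, overlapping matches at chr1:55088059-55088076 read on opposite strands as follows, with the motif in capitals.
Hspd1 and Hspe1: GAAccTTCcgGAA
Hspd1 and Hspe1: GAAggTTCtaGAA
Hspd1 was below all saline libraries with a log2 change of -0.21 (limma adjusted p = 0.57), and Hspe1 had -0.09 (0.95) with overlap.

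**Figure D2:**
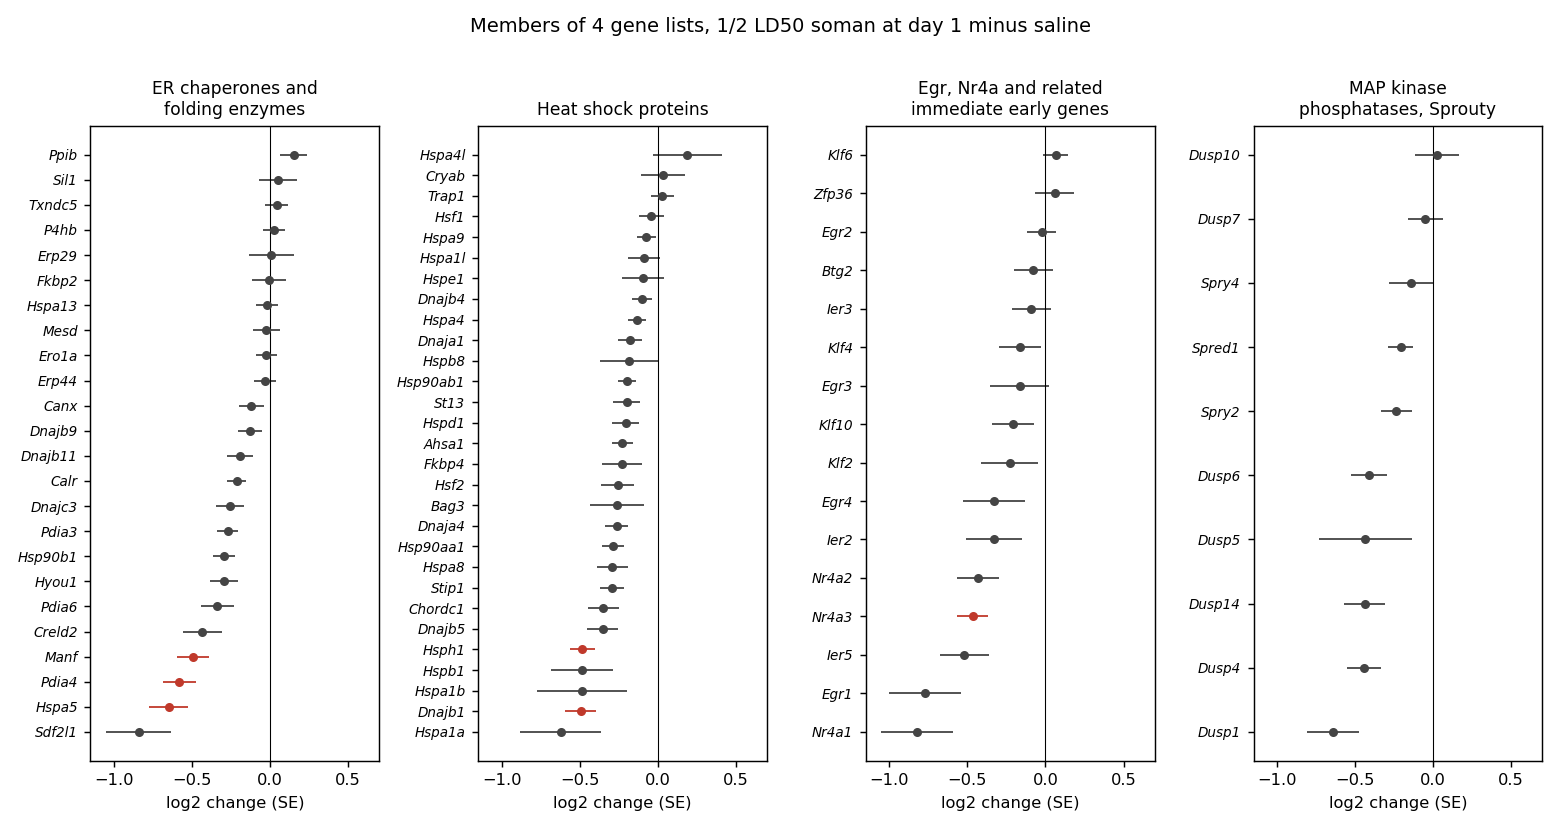
Log2 change of each tested member of 4 gene lists, 1/2 LD50 at day 1 minus saline, with its SE from the model of 39 libraries, where red marks genes that passed. Most members lie left of 0, and 3 ER chaperones, 2 heat shock proteins, Nr4a3 and no MAP kinase phosphatase passed.

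Among activity-induced messengers Arc and Nr4a3 fell. Of 24 tested activity-induced synaptic genes 1 fell and none rose (0.0884% of all tested genes fell). Of these 24, 9 were below all saline libraries (9.6% of all tested genes) and none above (7.93%), with a median log2 change of -0.18. Of 16 tested Egr, Nr4a and related immediate early genes 1 fell and none rose (median -0.22, 5 below), and of 6 AP-1 genes none passed (median -0.33, 2 below and 1 above). Most members of the 3 lists overlapped with saline.

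Arc, a synaptic protein that removes AMPA receptors after strong activity, had the second-lowest log2 change of the 17 genes. It stood at 43.1, 38.97 and 37.6 FPKM in saline and 18.8, 15.4 and 17.7 FPKM at 1/2 LD50, which is 43.3% of saline (log2 change -1.16 ± 0.22, SE, limma adjusted p = 0.0212). Nr4a3, an orphan nuclear receptor, fell from 5.14, 5.14 and 4.60 to 2.75, 3.92 and 3.35 FPKM (-0.46 ± 0.10, 0.0439). Neither gene's groups overlapped.

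Fos, the best known activity marker, was as low but did not pass. Its values were 12.7, 11.2 and 10.4 FPKM in saline and 5.53, 4.24 and 5.31 FPKM at 1/2 LD50, a log2 change of -1.05 ± 0.23 (SE, limma adjusted p = 0.066). Nr4a1, also an orphan nuclear receptor, had 22.0, 21.8 and 20.6 against 11.3, 12.2 and 11.6 FPKM (-0.82 ± 0.23, 0.215). Egr1, a zinc finger factor of plasticity, had 40.1, 41.0 and 37.9 against 18.3, 29.6 and 21.7 FPKM (-0.77 ± 0.23, 0.259). In all 3 genes every soman library was below every saline library. The model's error is shared across the 13 groups, while within these 6 libraries Nr4a1 had an SD of 0.770 FPKM in saline and 0.470 at 1/2 LD50 (n = 3 each).

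Other members kept to the same side. Junb had a log2 change of -0.58 ± 0.18 (SE, limma adjusted p = 0.309), Trib1, a pseudokinase, -0.56 ± 0.12 (0.0572), and Npas4, a neuronal factor that answers calcium, -0.57 ± 0.20 (0.401). Jund, an AP-1 member that is steadily expressed, was above all saline libraries, with a log2 change of 0.09 (0.944). Fosl1, Atf3 and Maff were below the limit for testing in both groups, at up to 0.384 FPKM.

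No feedback inhibitor of MAP kinase signalling passed. Of 10 tested phosphatases and Sprouty genes, 7 were below all saline libraries (9.6% of all tested genes), none were above, and the median log2 change was -0.32. Dusp1 stood at 14.9, 13.1 and 12.4 FPKM in saline and 9.18, 7.27 and 8.47 FPKM at 1/2 LD50 (log2 change -0.64 ± 0.17, SE, limma adjusted p = 0.149). Dusp4 had -0.44 ± 0.11 (0.107) and Dusp6 -0.41 ± 0.11 (0.215). The cyclic AMP response element TGACGTCA, which CREB binds in many activity-induced genes, was in 1 of 8 phosphatase windows (2.03% of all gene symbols), that of Dusp1, in 2 of 17 of the synaptic list (Plk2, Pcsk1), in 1 of 12 of the Egr and Nr4a list (Btg2) and in none of 6 of the AP-1 list. These shares describe the lists and test nothing. The 250 bases before the start of Dusp1 are shown as the only phosphatase promoter with this element. They lie at chr17:26508473-26508722 on the minus strand (GRCm38.p6), with the element in capitals.
Dusp1: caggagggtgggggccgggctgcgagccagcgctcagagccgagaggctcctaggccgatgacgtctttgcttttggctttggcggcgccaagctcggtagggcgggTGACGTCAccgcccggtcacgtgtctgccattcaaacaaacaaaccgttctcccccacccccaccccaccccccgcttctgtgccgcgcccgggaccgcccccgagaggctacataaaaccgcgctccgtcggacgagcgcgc

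Clock genes overlap with the activity-induced set. Of 19 tested, none passed, 6 were below all saline libraries (9.6% of all tested genes) and 2 above (7.93%), and the median log2 change was -0.11. Per1, a period gene that is also induced by activity, had 16.8, 20.6 and 17.9 FPKM in saline and 11.5, 12.98 and 12.9 at 1/2 LD50 (log2 change -0.53 ± 0.13, SE, limma adjusted p = 0.109), and Per2 had -0.46 ± 0.12 (0.16). Dbp, a clock output factor, was above all saline libraries, with 38.7, 36.6 and 36.0 against 26.7, 30.6 and 27.3 FPKM (0.39 ± 0.13, 0.373). The hour of sampling was not tested.

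The cold-inducible RNA-binding proteins were higher. Rbm3, which protects synapses and messengers in the cold, stood at 17.7, 22.6 and 23.6 FPKM in saline and 36.9, 36.7 and 37.1 FPKM at 1/2 LD50. It rose to 173.4% of saline (log2 change 0.78 ± 0.14, SE, limma adjusted p = 0.0121), and the 3 soman libraries were within 1 FPKM of each other. Cirbp, its closest relative, had 25.4, 30.2 and 28.0 FPKM in saline and 39.9, 41.6 and 42.4 at 1/2 LD50, with no overlap (0.55 ± 0.14, 0.107). No body temperature is given in the sources used here, and its part in these values was not tested.

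Rpl30 was lower at 1/2 LD50 on day 1 than in any other library of the series. It stood at 59.0, 72.1 and 62.4 FPKM in saline and at 9.58, 6.60 and 8.77 FPKM at 1/2 LD50, a fall to 12.9% of saline (log2 change -2.82 ± 0.31, SE, limma adjusted p = 4.74e-06). The other 33 libraries ranged from 64.2 to 177.7 FPKM, so that the 3 libraries of 1/2 LD50 at day 1 were the lowest of 39. Tested directly against 1/10 LD50 at day 1, the log2 difference was -3.73 with an SE of 0.31 (limma adjusted p = 6.36e-09). The value against 1/5 LD50 was -3.66 (limma adjusted p = 1.03e-08), and day 3 was higher than day 1 at 1/2 LD50 by 3.65 (1.07e-08). Summed with its 7 pseudogene rows, which share much of its sequence, Rpl30 was at 22.8 ± 2.66 FPKM at 1/2 LD50 and 74.9 ± 3.95 in saline (SD, n = 3), with 74.5 to 191.9 in the other 33 libraries. Of these copies Rpl30-ps9 was higher at 1/2 LD50, at 7.80 against 4.18 FPKM.

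**Figure D3:**
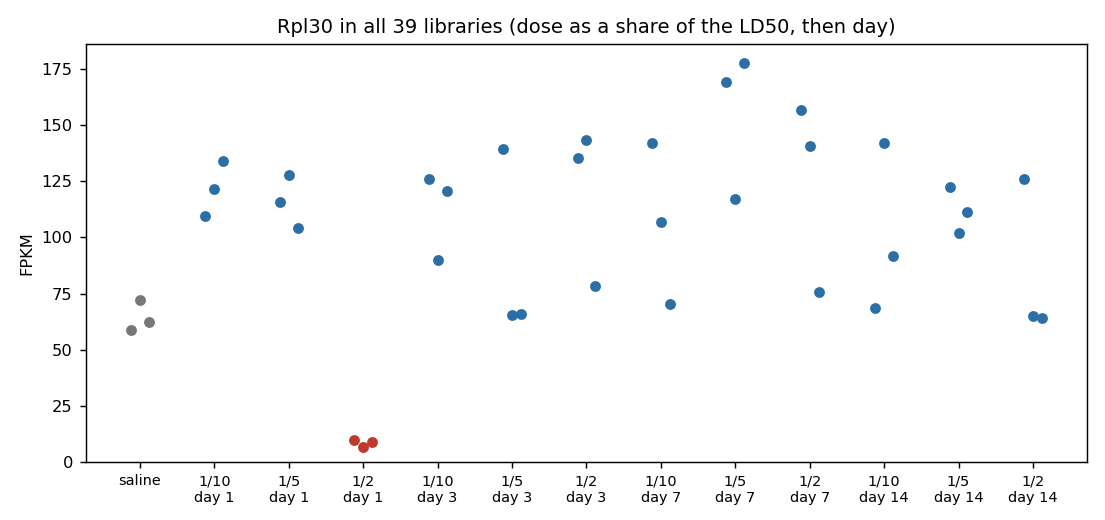
Rpl30 in FPKM in each of the 39 libraries, grouped by dose (share of the LD50) and day, with saline in grey and 1/2 LD50 at day 1 in red. The 3 red points lie between 6.60 and 9.58 FPKM, below all 36 others.

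Cytosolic ribosomal protein genes mostly had higher means (48 of 52), while over all tested genes 52% had lower means. Of these 52 tested genes 1 fell, Rpl30, and none rose (0.0884% of all tested genes fell). Of the same 52, 21 were above all saline libraries (7.93% of all tested genes), and the median log2 change was 0.12. Rps2 had the highest log2 change, 2.12 ± 0.70 (SE, limma adjusted p = 0.361), with 15.6, 8.35 and 9.09 FPKM in saline and 18.7, 100.002 and 63.0 at 1/2 LD50. Its most abundant copy, Rps2-ps10, was lowest where Rps2 was highest, with 212.1, 81.0 and 117.2 FPKM in the same 3 soman libraries. Summed with its pseudogene rows, Rps2 was at 222.6 ± 19.0 FPKM in saline and 244.9 ± 43.9 at 1/2 LD50 (SD, n = 3).

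Reads shared between copies or overlapping genes also touch 2 other genes of large change that did not pass. Eno1b, a copy of the glycolytic enzyme gene Eno1, had a log2 change of 1.06 (limma adjusted p = 0.331), and the sum of both was 263.8 ± 7.14 FPKM in saline and 256.7 ± 17.4 at 1/2 LD50. Txnl4a, a splicing factor, had -1.08 (0.25) while its overlapping neighbour Gm16286 went from 4.07 to 20.6 FPKM, and their sum was 30.7 ± 3.67 and 32.7 ± 1.24 FPKM. The split of reads between such rows is uncertain.

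Interferon-stimulated genes had lower means in 21 of 22 cases (52% of all tested genes had lower means) but were not called. Of 22 tested none passed, 9 were below all saline libraries (9.6% of all tested genes), none were above, and the median log2 change was -0.35. Bst2, a membrane protein that tethers budding viruses, had 4.02, 8.79 and 5.78 FPKM in saline and 2.64, 3.37 and 2.89 at 1/2 LD50 (log2 change -0.81 ± 0.24, SE, limma adjusted p = 0.259). Irf7, the factor that amplifies the response, had 1.15, 4.97 and 3.20 against 1.41, 0.893 and 0.859 FPKM (-0.89 ± 0.30, 0.361) and overlapped. The spread lay in saline: the summed FPKM of the tested members was 80.3, 118.3 and 103.5 in saline and 80.4, 64.6 and 70.6 at 1/2 LD50, so that saline replicate 1 was level with soman replicate 1. Il1b, Tnf, Il6, Ccl2 and Cxcl10 were below the limit for testing in both groups.

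The myelin genes had higher sums in 2 of the 3 soman libraries. Of 18 tested oligodendrocyte genes 1 rose (0.0272% of all tested genes did) and none fell, with 2 above all saline libraries (7.93% of all) and a median log2 change of 0.25. Opalin, a membrane protein of mature oligodendrocytes, stood at 6.76, 7.82 and 7.26 FPKM in saline and 15.5, 11.03 and 12.6 FPKM at 1/2 LD50, a log2 change of 0.75 ± 0.13 (SE, limma adjusted p = 0.0102). Mal, a proteolipid of myelin, was the other gene above all saline libraries, with 111.5, 112.2 and 119.4 FPKM in saline and 160.4, 121.1 and 136.9 at 1/2 LD50, and it did not pass. Mag, a myelin adhesion protein, had 143.1, 143.8 and 146.7 FPKM in saline and 212.9, 146.1 and 173.1 at 1/2 LD50 (0.28 ± 0.16, 0.726). The summed FPKM of the list was 3712, 3764 and 3876 in saline and 5538, 3595 and 4522 in replicates 1, 2 and 3 of 1/2 LD50. The same replicates held 967.4, 1341 and 1105 FPKM of the list of hippocampal and cortical neuron genes, against 1171 to 1199 in saline. Replicate 1 was thus high in myelin and low in cortical genes and replicate 2 the reverse. The part of the tissue taken in Opalin's rise was not tested.

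None of 18 tested endothelial genes and none of 13 pericyte and smooth muscle genes passed, while 7 and 6 were above all saline libraries (7.93% of all tested genes) and none were below (medians 0.19 and 0.19). Vwf, the adhesive protein of vessel walls, had 4.33, 3.91 and 3.92 FPKM in saline and 5.95, 5.50 and 5.58 at 1/2 LD50 (log2 change 0.40 ± 0.15, SE, limma adjusted p = 0.425), and Pdgfrb, the growth factor receptor of pericytes, had 0.24 ± 0.08 (0.389).

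The gene of the enzyme that soman blocks stayed within the spread. Ache stood at 34.9, 31.5 and 30.2 FPKM in saline and 39.2, 27.9 and 33.6 FPKM at 1/2 LD50 (log2 change 0.05 ± 0.13, SE, limma adjusted p = 0.989), and it took the other sign without replicate 1 of 1/2 LD50 (-0.0695) and without replicates 3 of the saline and day 1 groups (-0.0036). Bche, butyrylcholinesterase, was above all saline libraries at about 1 FPKM (0.15 ± 0.13, 0.872), and Chat, which makes acetylcholine, overlapped (-0.13 ± 0.17, 0.949). Of 18 tested genes of cholinergic signalling none passed, and the median log2 change was 0.00. Chrm1, the main cortical muscarinic receptor, had 11.6, 13.4 and 12.8 FPKM in saline and 7.48, 12.4 and 9.82 at 1/2 LD50 (-0.34 ± 0.15, 0.61).

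Of the 6 libraries, the pituitary messengers Gh, Prl, Cga and Pomc were highest in replicates 2 and 3 of 1/2 LD50. Gh, growth hormone, was at 6.18, 0 and 2.15 FPKM in saline and 0.241, 38.4 and 16.1 in replicates 1, 2 and 3 of 1/2 LD50, and Cga, the shared subunit of the glycoprotein hormones, at 0.147, 0 and 0.132 against 0.307, 3.30 and 2.46 FPKM. Cga had a log2 change of 1.30 ± 0.29 (SE, limma adjusted p = 0.066), and Pomc, the precursor of ACTH, 1.20 ± 0.32 (0.157). In the other 33 libraries the highest values were 55.8 FPKM for Gh, 3.79 for Prl (prolactin), 1.48 for Cga and 3.33 for Pomc. None of 5 tested pituitary genes passed against saline. The summed FPKM of the 5 tested genes was 85.9 to 89.2 in saline and 84.3, 113.1 and 96.8 at 1/2 LD50, and Chga, a granule protein also made by neurons, took most of it. Pou1f1, the factor that defines several pituitary cell types, was at 0 in 5 of the 6 libraries and at 0.00798 FPKM in the other. Cga and Pomc were above all saline libraries in all 3 soman libraries, with replicate 1 nearest to saline, and the part of pituitary tissue in these values was not tested.

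**Figure D4:**
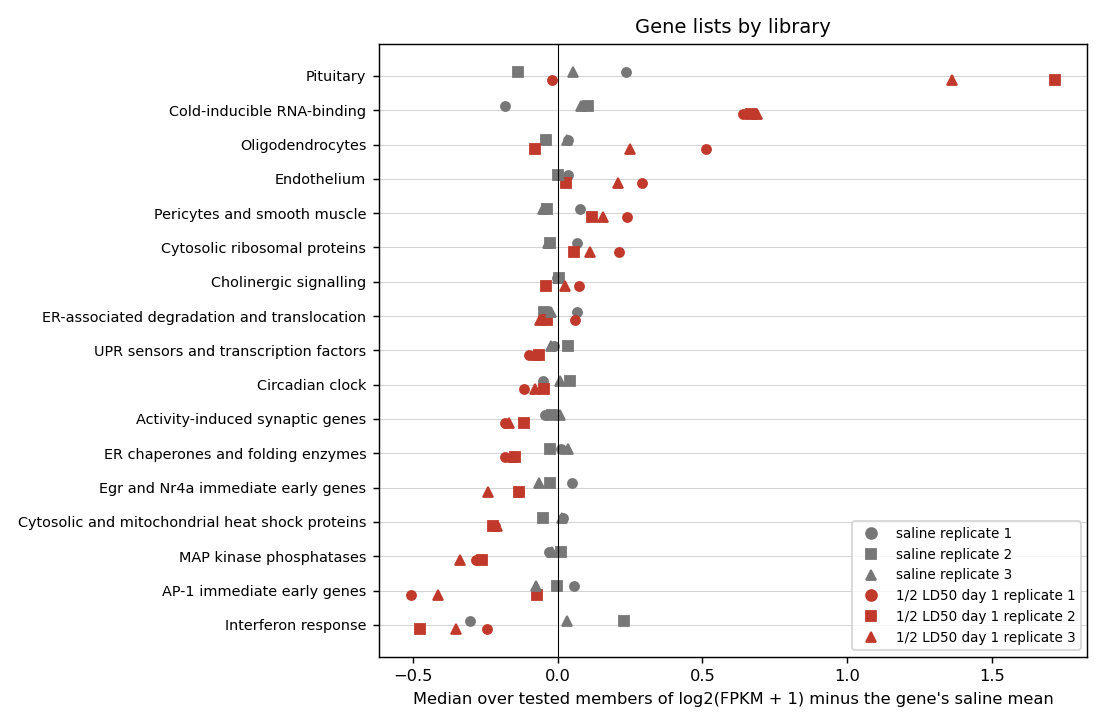
Median over the tested members of each of 17 gene lists, as log2(FPKM + 1) minus the gene's saline mean, for the 3 saline (grey) and 3 soman libraries (red), with a marker shape for each replicate. The soman libraries lie together and left of saline for heat shock proteins, ER chaperones and MAP kinase phosphatases, and together and right of it for the 2 cold-inducible genes, but spread widely for pituitary and oligodendrocyte genes.

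The remaining genes that passed belong to none of these lists. Eomes, a T-box factor of neuronal progenitors and of olfactory bulb and cerebellar neurons, went from 1.75, 2.85 and 2.75 to 0.927, 0.512 and 0.904 FPKM (log2 change -0.95 ± 0.19, SE, limma adjusted p = 0.0356). Nuak1, a kinase of axon branching, went from 12.98, 12.2 and 12.6 to 9.26, 9.01 and 9.33 FPKM (-0.41 ± 0.08, 0.0358). Gm51716 was at 0.204, 0.205 and 0.0746 FPKM in saline and 2.16, 1.48 and 1.83 at 1/2 LD50 (1.28 ± 0.26, 0.0356), and Gm33272 at 0.343, 0.938 and 0.792 against 5.75, 1.22 and 3.20 FPKM (1.25 ± 0.22, 0.0102). Near or below 1 FPKM the scale of log2(FPKM + 1) understates a change.

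Larger changes that did not pass were found by rule among genes whose groups do not overlap. Prss56, a serine protease, had 5.94, 6.53 and 6.75 FPKM in saline and 0.143, 2.91 and 1.55 at 1/2 LD50 (log2 change -1.72 ± 0.38, SE, limma adjusted p = 0.0653). Gdpd3, a lysophospholipase D, had 3.08, 3.37 and 3.59 against 0.756, 0.376 and 0.278 FPKM (-1.58 ± 0.55, 0.386). Sumo2, a ubiquitin-like modifier, had 22.4, 21.1 and 24.3 against 47.8, 86.5 and 56.8 FPKM (1.41 ± 0.47, 0.361). It varied widely within other groups, from 22.3 to 67.8 FPKM at 1/10 LD50 of day 1. Over the 33 libraries outside both groups it ranged from 20.1 to 80.9 FPKM. Ppdpf, Mthfs and Tmem159 were higher by 0.72 to 0.78 and did not pass either.

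How far the changes depended on dose at day 1 was asked by direct tests between the soman groups, whose error comes from the model of all 13 groups. Against 1/10 LD50, 27 genes were higher (0.184% of 14701) and 8 lower (0.0544%) at 1/2 LD50, 0.238% in all. Against 1/5 LD50, 6 were higher (0.0408%) and 1, Rpl30, was lower (0.0068%), 0.0476% in all. Of the 17 genes that passed against saline, 2 passed against 1/10 LD50, Rpl30 and Gm33272, and 1 passed against 1/5 LD50, Rpl30.

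The ER chaperones had a median log2 difference of 0.20 against 1/10 LD50, where the median of all genes was 0.02, and of 0.03 against 1/5 LD50. Cell type lists had medians of the same size or larger against 1/10 LD50: 0.51 for oligodendrocytes, 0.23 for choroid plexus, 0.23 for endothelium, 0.20 for astrocytes, -0.22 for hippocampal and cortical neurons and -0.34 for striatal neurons. Their part in the dose differences was not tested. Hspa5 was at 77.0, 69.0 and 81.8 FPKM at 1/10 LD50 and at 97.9, 146.4 and 117.6 FPKM at 1/5 LD50. The difference of 1/2 from 1/10 LD50 was 0.55 on the log2 scale (95% interval 0.29 to 0.80, limma adjusted p = 0.0556), and that from 1/5 LD50 was -0.10 (-0.36 to 0.16, 0.998). Calr, the calcium-binding chaperone, was the list's 1 member that passed, higher at 1/2 than at 1/10 LD50 by 0.36 (limma adjusted p = 0.00878). Without replicates 3 of the day 1 groups 1 gene, Rpl30, passed against 1/10 LD50.

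The heat shock proteins had a median of 0.05 against 1/10 LD50, and none passed. Hsph1 differed from 1/10 LD50 by -0.04 (95% interval -0.20 to 0.13, limma adjusted p = 0.915). Arc was at 10.7, 14.9 and 12.2 FPKM at 1/10 LD50 and 27.8, 25.7 and 26.8 FPKM at 1/5 LD50. Its value at 1/2 LD50 lay between, with differences of 0.43 (-0.02 to 0.89, 0.48) and -0.60 (-1.06 to -0.15, 0.691). Neither passed. Genes named by size against 1/10 LD50 were, on the higher side, Cga (1.39, limma adjusted p = 0.0307), Pdlim2 (0.83, 0.039), Gstt1 (0.81, 0.0463) and Aass (0.70, 0.0229). On the lower side they were Kcnh7, a potassium channel (-0.73, 0.0327), Wdr17 (-0.64, 0.0307) and Ano3 (-0.62, 0.0307), beside Rpl30. Against saline the log2 changes were 0.57 for Pdlim2, 0.09 for Gstt1, 0.22 for Aass, -0.41 for Kcnh7, -0.12 for Wdr17 and -0.27 for Ano3. None of these passed against saline. Pdlim2 was at 14.9, 7.83 and 10.6 FPKM in replicates 1, 2 and 3 of 1/2 LD50. Against 1/5 LD50 the gene named, beside Rpl30, was Ddx3y, an RNA helicase encoded on the Y chromosome (0.72, limma adjusted p = 0.0492). It stood at 14.9 FPKM at 1/2 LD50 and 14.3 FPKM in saline (log2 change 0.05, limma adjusted p = 0.987). The sex of the animals is not given in the sources used here, and its part in this value was not tested.

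**Figure D5:**
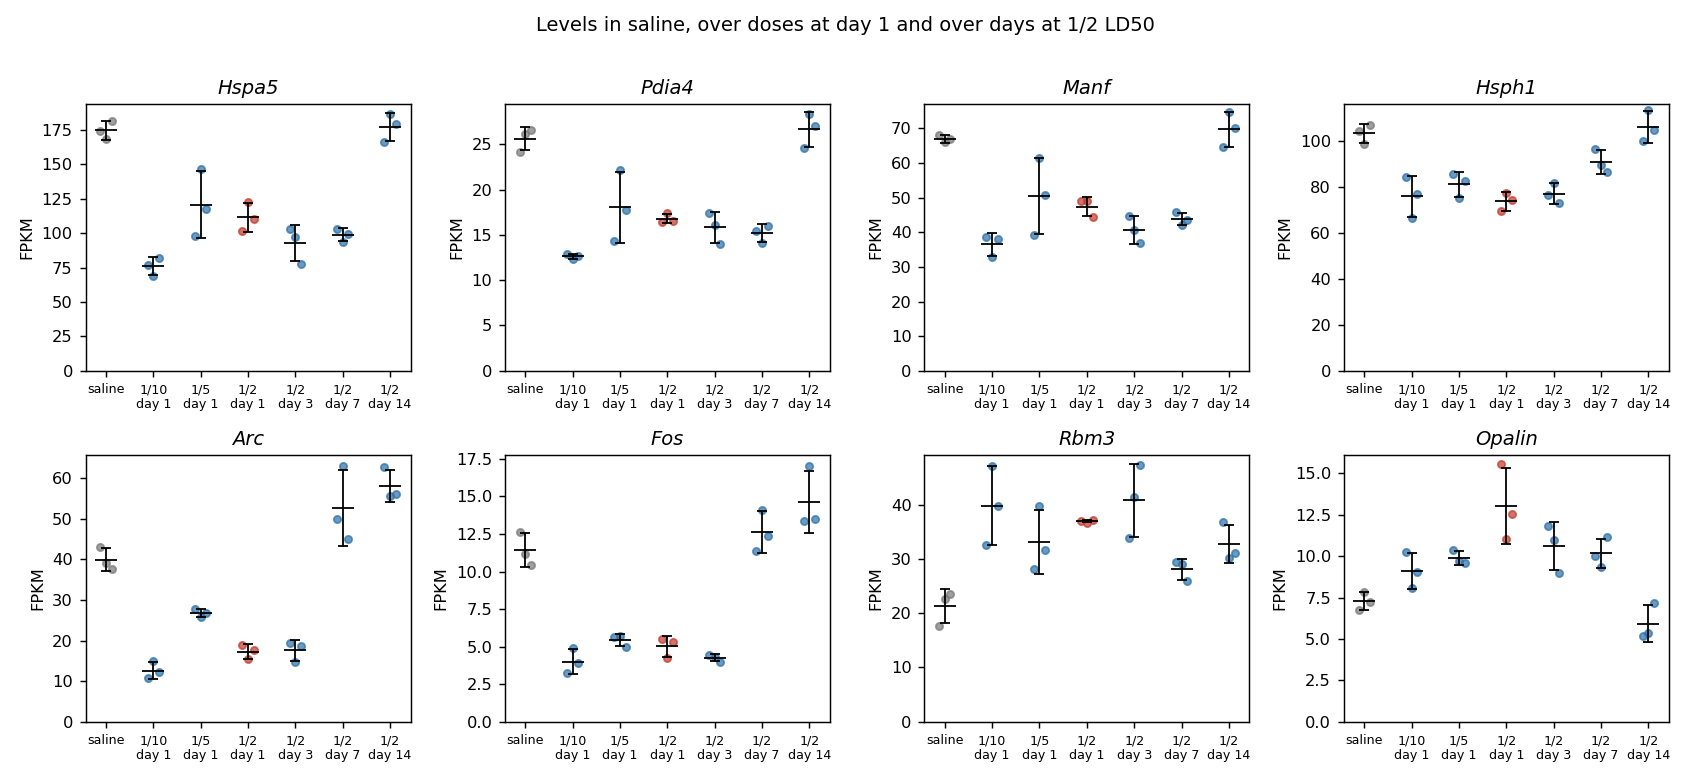
FPKM of 8 genes in saline (grey), in the 3 doses at day 1 and at 1/2 LD50 on later days (1/2 LD50 at day 1 in red), where points are libraries and bars are the mean ± SD (n = 3). At day 14 of 1/2 LD50 Hspa5, Pdia4 and Manf overlap with saline, while Arc is above it at 55.6 to 62.6 FPKM.

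At the same dose, day 3 differed from day 1 in 401 genes, of which 135 were higher (0.918% of 14701) and 266 lower (1.81%) at day 3, 2.73% in all. Collection day and any batch cannot be told apart here. Of the 17 genes 2 passed: Rpl30, which was higher at day 3, and Gm33272, which was lower (-1.23, limma adjusted p = 0.00285). None of the tested ER chaperones or heat shock proteins passed. Hspa5 had a difference of -0.27 (95% interval -0.53 to -0.01, limma adjusted p = 0.235), and Hsph1 one of 0.06 (-0.10 to 0.22, 0.703). Arc had a difference of 0.02 (-0.44 to 0.47, 0.975).

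Other lists held more calls between day 1 and day 3, though most of the 401 genes are in none of the lists. Of all tested genes 0.918% were higher and 1.81% lower at day 3. Of 16 tested antigen presentation genes 6 were higher at day 3 and none lower (median 1.18), and of 22 interferon genes 4 were higher and none lower (median 0.51), with a median over all genes of 0.04. H2-K1, a class I antigen-presenting molecule, was higher by 2.74 (limma adjusted p = 0.0212), Gbp4, an interferon-induced GTPase, by 1.70 (0.0254) and Ly6a by 1.68 (0.00638). Of 22 collagen and meningeal fibroblast genes 13 were lower and none higher (median -0.51), among them Col3a1 (-0.87, 0.000758). Of 14 choroid plexus genes 2 were lower (median -0.51), and of 17 cerebellar neuron genes 1 (median -0.32), and the part of the tissue taken in these differences was not tested. Cga (-1.20, 0.0211), Tmsb15l (-1.44, 0.0217) and Lnpep (-0.88, 0.00141) were lower as well. Without replicate 3 of day 1, 129 genes passed this test, and without replicate 1 of day 3 104.

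Set beside each other, the comparisons of each group with saline share the 3 saline libraries and so are not independent. Of the 17 genes, 11 also passed at 1/10 LD50 and none at 1/5 LD50 of day 1, where 51 and 2 genes passed in all (0.347% and 0.0136%). At 1/5 LD50 the log2 changes of all of the 17 but Rpl30 had the same sign as at 1/2 LD50. Hspa5 had -0.55 there (limma adjusted p = 0.135) and Rpl30 0.84 (0.608). At 1/2 LD50, 13 passed at day 3 (8.44% of all genes did), 10 at day 7 (8.39%) and 2 at day 14 (0.415%). Hspa5 was at 92.5 ± 13.1 FPKM at day 3, 98.7 ± 4.81 at day 7 and 177.4 ± 10.1 at day 14 (SD, n = 3). Fos was at 4.27 ± 0.235 FPKM at day 3 and 12.6 ± 1.38 at day 7. Rbm3 was above all saline libraries at each of these days, at 40.8 ± 6.73, 28.1 ± 1.94 and 32.7 ± 3.52 FPKM.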

How the data were processed

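Brain RNA of 39 libraries (13 groups of 3) was read from 1 deposited table of FPKM with 47561 gene rows. Of these rows 1987 carry an assembly identifier, and no column was left unused (0). The authors selected RNA with poly(dT) beads, per the labels' protocols. The submitters' processing notes name HISAT2, with no version given, and the build GRCh38, a human assembly, for these mouse samples. No coordinate was taken from the table. Read totals are not given in the sources used here, so the depth behind an FPKM is unknown and no counting interval is given.

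From the deposited FPKM, log2(FPKM + 1) was computed here, and genes at 1 FPKM or more in at least 3 libraries were kept (14701). All 13 group means were fitted together with limma 3.58.1 in R 4.3.3 (moderated variance with a mean trend, two-sided), with Benjamini-Hochberg adjusted p-values over the 14701 genes and a threshold of 0.05. A fold change on this scale understates the change of low genes. "Below" and "above all saline libraries" compare FPKM of the 3 libraries of each group. The script was tested on simulated data. Where several genes follow each other, later parentheses give the log2 change ± SE and the limma adjusted p in the order of the first.

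Named genes were every gene that passed; the 10 largest rises and 10 largest falls among genes with an unadjusted p under 0.01, a mean of 2 FPKM or more, groups that do not overlap and a symbol that is not a predicted locus; up to 5 members of smallest p in each described list; Ache, Bche and Chat; and, between doses or days, the 4 largest rises and falls that passed. Further list members were named as examples after their values were seen. The members of the comparison and the gene lists were chosen with earlier results of these data known.

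The alternatives were another pseudocount (0.1), no filter, a minimum of 5 FPKM, median-ratio scaling, a fit of the compared groups alone, a block for the replicate number, no variance trend, library weights, leaving out libraries and, added after seeing the data, removal of the trend with transcript length. Promoter windows (32851, for 27025 symbols) are from RefSeq on GRCm38.p6. Figures were drawn with matplotlib 3.10.9 in Python 3.11.15.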

Additional observations from a re-analysis of the deposited data

Results flagged for a closer look

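A pair of genes that passed against saline also differed from other soman groups by a test of the difference itself. Rpl30 was lower at 1/2 LD50 on day 1 than at 1/10 LD50 (log2 difference -3.73, limma adjusted p = 6.36e-09) and than at 1/5 LD50 (-3.66, limma adjusted p = 1.03e-08), and higher at day 3 than at day 1 of 1/2 LD50 (3.65, limma adjusted p = 1.07e-08). In each of these tests the 3 libraries of one group lay beyond the 3 of the other.

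The predicted locus Gm33272 was higher at 1/2 than at 1/10 LD50 on day 1 (log2 difference 1.36, limma adjusted p = 0.00638) and lower at day 3 than at day 1 of 1/2 LD50 (-1.23, limma adjusted p = 0.00285). Its 3 libraries of 1/2 LD50 at day 1 ranged from 1.22 to 5.75 FPKM.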

How the results depend on the processing

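Of 17 calls against saline, another pseudocount gave 19, no filter 20 (10 higher and 10 lower, of which 11 were among the 17), a stricter filter 13, median-ratio scaling 20, no variance trend 18 and removal of the length trend 25. A fit of only the groups compared gave 30 (9 shared), and library weights gave 2663, where the weight of soman replicate 3 was 14.5 and those of replicates 1 and 2 were 0.642 and 0.633 and the estimate did not converge. Without replicate 3 of saline and of the day 1 groups there was 1. Leaving out 1 library at a time gave 3 to 13.

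Against 1/10 LD50 the 35 calls became 22 with no filter, 10 with the stricter filter, 58 with only the groups compared, 1 without replicates 3 and 1 to 25 with 1 library left out. Against 1/5 LD50 the 7 calls became 1 with the other pseudocount, 1 with the stricter filter, 16 with only the groups compared, 1 without replicates 3 and 1 to 9 with 1 library left out. Between day 3 and day 1 the 401 calls became 639 with median-ratio scaling (129 higher and 510 lower), 30 with only the groups compared, 67 without replicates 3, 245 without the length trend and 104 to 371 with 1 library left out. The log2 change of Ache was -0.0036 without replicates 3 and ranged from -0.0695 to 0.17 with 1 library left out. Fewer libraries enter where some are left out, and for the other settings the cause was not tested.

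For same-numbered libraries of the saline and 1/2 LD50 groups, the correlations of their deviations from the group means were -0.00466, 0.0148 and 0.0744. With 3 libraries a group and replicate 3 between the others, these values cannot tell whether same-numbered libraries were prepared together. With the replicate number as a block there were 18 calls against saline (16 shared), 37 against 1/10 LD50, 12 against 1/5 LD50 and 390 between the days.

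Among the 17 lists described, the sign of the median against saline changed under some setting for ER-associated degradation (-0.05 to 0.01) and cholinergic signalling (-0.17 to 0.01). Depth is unknown, and levels near or below 1 FPKM are the least certain. Transcript length was known for 14104 genes, with a median of 2653 bases in genes higher at an unadjusted p under 0.05, 3954 in those lower and 3281 in all.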
